A study of Danio rerio with 8 samples.

Results

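Ribosome biogenesis is the assembly of ribosomes from ribosomal RNA and ribosomal proteins, and most of its early steps take place in the nucleolus. RNA polymerase I transcribes the large ribosomal RNA precursor, small nucleolar ribonucleoproteins (snoRNPs) modify it, and the small-subunit processome and the large-subunit factors fold and cut it while ribosomal proteins are added. An early fish embryo carries a large maternal store of ribosomes, and its own nucleoli appear as zygotic transcription begins. The genes described here code for this machinery. They were chosen by symbol: those that start with polr1, imp3 or imp4, those with nop, utp, rrp, nol, gnl or tsr before a digit, and a fixed set of single names such as fbl, dkc1, ncl, npm1a, gar1, nhp2, bop1 and pes1. Of 64 Ensembl identifiers with such a symbol in the name table, 51 had a value in each of the 4 groups and are the members below, out of 33633 identifiers used. The other 13 (NOP58, NOP10, POLR1A, IMP3, GNL2, UTP6, utp18, UTP20, UTP23, nop14, rrp7a, nop53 and rrp1) were not analysed here, so that several complexes are seen only in part. Symbols are written as the name table gives them, which puts many zebrafish genes in capitals.

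The values were ribosome footprint levels from whole zebrafish (Danio rerio) embryos, taken at 4 hpf (hours after fertilization), a blastula stage. There were 3 groups of the genotype Ddx3xb-/Ddx3xb-: mutants that had received ddx3xbFL by injection (KO_FL), mutants that had received ddx3xb deltaN in the same way (KO_dN), and mutants with no construct (KO). Wild type embryos (WT) were the controls. Each group had 2 samples, and all embryos had been soaked in cycloheximide, which halts elongating ribosomes. The product of ddx3xb is an RNA helicase with a DEAD box. The labels give neither the position of the mutation nor the dose or extent of the constructs, and no mutant embryos injected with a control were analysed here, so injection and construct cannot be told apart. Whether the 2 samples of a group came from separate clutches is not stated. Sample titles of the injected groups are written in another style than those of KO and WT. Whether these groups were prepared together was not analysed here, so a difference of batch cannot be told apart from injection. The authors deposited 1 FPKM value per gene and group (fragments counted on a gene, divided by transcript length and by the library's mapped fragments), made from both replicates and read here as their mean. There is therefore no replicate error and no test for any value below, and each difference is a description of these libraries. Footprints per gene depend on the amount of mRNA and on how densely it is translated, and these cannot be told apart here; nor can fewer cells of a type and less RNA per cell.

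The groups were not on a common scale. The WT file also differed in layout from the other 3, with a header line and with 101 identifiers on several lines, and whether it came from the same processing run is not known. Every value of KO against WT rests on setting that file beside the KO file. Summed FPKM over all identifiers used was 395754 in KO_FL, 190693 in KO_dN, 364061 in KO and 2050290 in WT. Among genes below 0.1 FPKM the step that 1 read makes can be seen, and relative depth was estimated from it. The ratios used held only 15.4% to 23.7% of those genes, depending on the pair of groups. If the files share a scale, depths were 100% and 66.8% of the deepest library in KO_FL and 75.8% and 71.6% in KO_dN. They were 91.3% and 57.2% in KO, and 34.6% and 27.2% in WT. Read numbers were not analysed here. Log2 ratios were therefore taken after 1 FPKM was added to each value as a pseudocount. Genes with a mean of at least 1 FPKM over the groups were kept, 7698 in all, and their median was subtracted. That median was -1.94 for KO against WT, 0.18 for KO_FL against KO, -0.36 for KO_dN against KO and 0.54 for KO_FL against KO_dN. The result is called the relative log2 ratio, and a gene is called higher or lower relative to all genes when it lies at least 1.5-fold away on this scale. It understates the change of low genes. In KO against WT, where that median is strongly negative, it can also place a low gene too high. The member polr1e was at 0.0151 of WT without the pseudocount, yet at -0.41 on this scale. As deposited, ddx3xb itself stood at 76.7 FPKM in KO_FL, 126.5 in KO_dN, 14.7 in KO and 129 in WT. The median gene kept stood at 1.74 FPKM in KO_FL, 0.848 in KO_dN, 1.43 in KO and 8.19 in WT. The ddx3xb values therefore do not compare the groups on a common scale. All 11 blastula markers on a fixed list reached 1 FPKM in KO_FL and in WT, 8 of them in KO_dN and 9 in KO, while 8 markers of later tissues were at most 1.44 FPKM in any group.

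Ribosome biogenesis genes reached 1 FPKM more often than identifiers at large, many of which stood at 0 FPKM. Among genes past the filter, the median member stood at percentile 53.3 in KO_FL, 48.2 in KO_dN, 51.9 in KO and 71.7 in WT. Of the 51 members, 40 reached 1 FPKM in KO_FL, 17 in KO_dN, 38 in KO and 49 in WT, where 16.4%, 10.3%, 14.6% and 32.4% of all identifiers did so in KO_FL, KO_dN, KO and WT. The filter kept 47 members. Of these, 11 (polr1e, polr1g, POLR1C, UTP4, nop2, NOL6, RRS1, UTP14C, WDR12, rrp36 and TSR3) had a mean under 1 FPKM over the mutant groups and so passed only through WT, as did 37.4% of all genes kept. The first 6 reached 1 FPKM in no mutant group, as did 25.3% of all genes kept. The 4 below the filter were POLR1B at a mean of 0.672 FPKM, GNL3L at 0.629, nol4la at 0.291 and NOL4L at 0.157, and the member just above it was POLR1C at 1.23 FPKM. The order of levels as deposited was WT, then KO_FL, then KO, then KO_dN in 37 of all 51 members. It was that in 58.3% of the genes past the filter, and it was the commonest order in both. GAR1 was the 1 member whose highest value was not in WT.

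**Figure D1:**
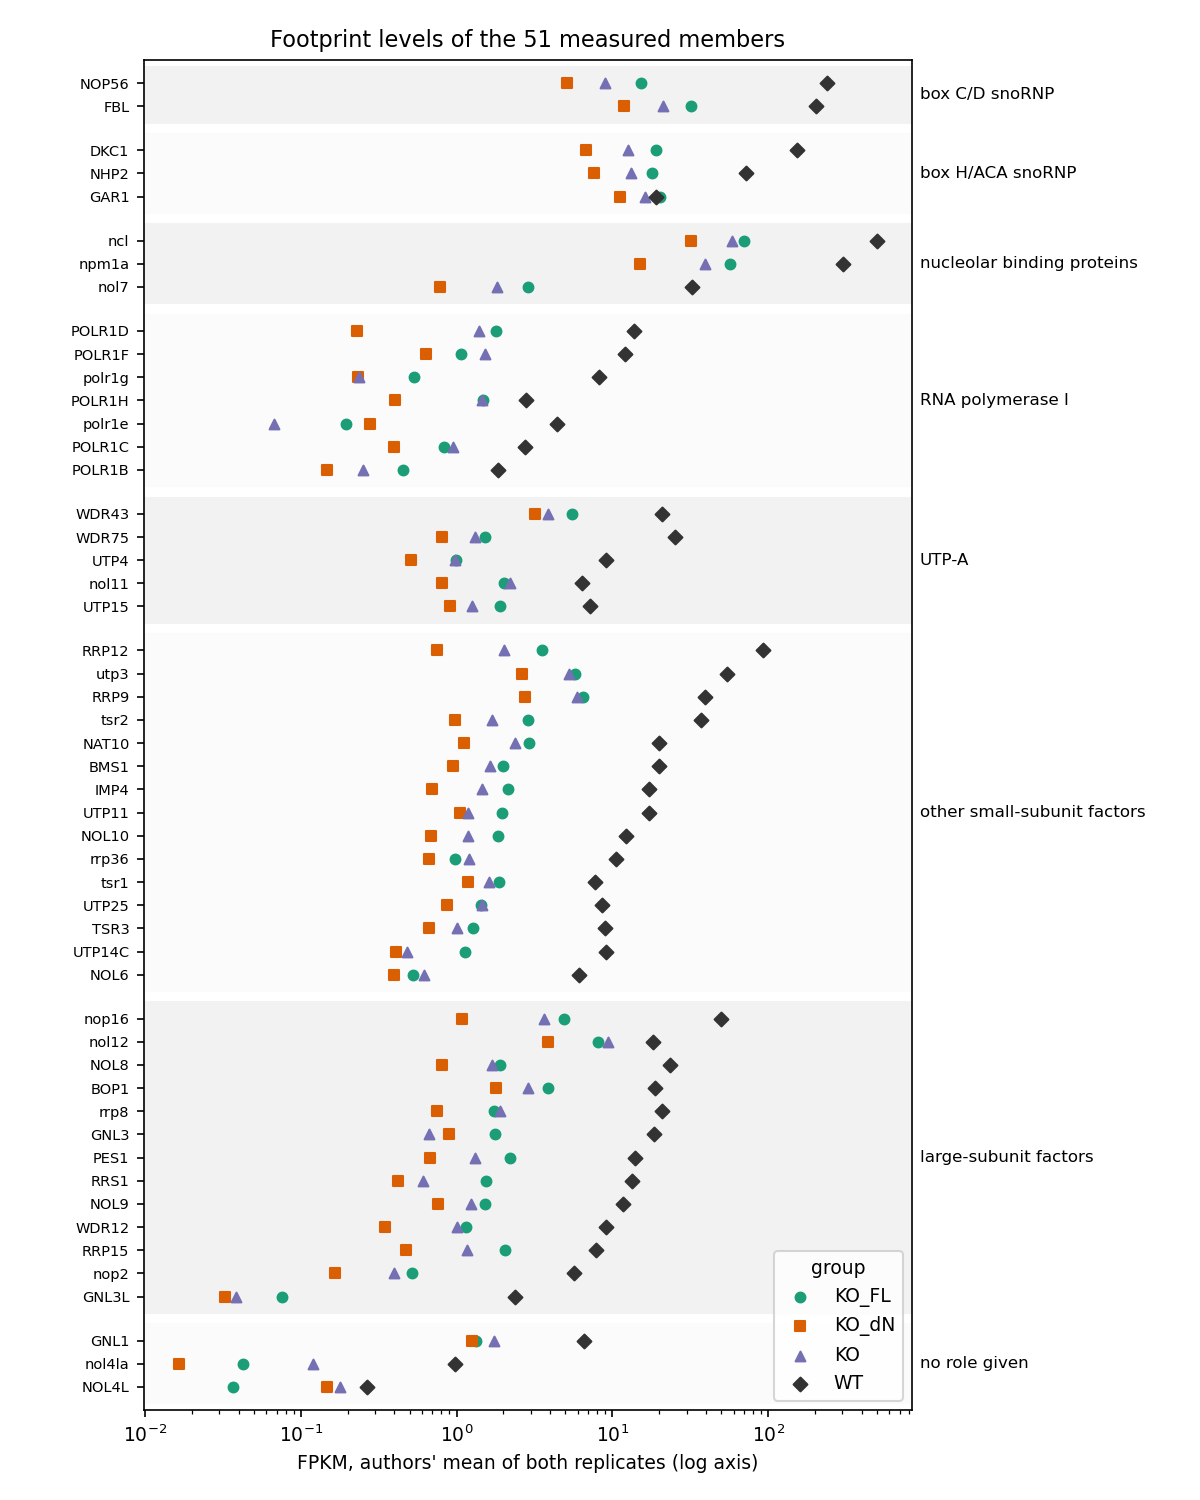
FPKM of the 51 members in KO_FL (circles), KO_dN (squares), KO (triangles) and WT (diamonds), 1 deposited value per gene and group on a log axis, with members grouped by role. The nucleolar and snoRNP proteins lie to the right, RNA polymerase I subunits to the left, and GAR1 is the row in which the KO_FL circle lies to the right of the WT diamond.

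The total was carried by a handful of abundant nucleolar proteins. ncl, npm1a, NOP56, FBL and DKC1 had the highest means and made up 60.1% of the members' summed FPKM in KO_FL, 55.2% in KO_dN, 57.5% in KO and 62.9% in WT. ncl (ENSDARG00000002710), nucleolin, an RNA-binding protein of the nucleolus, stood at 70.2 FPKM in KO_FL, 32.2 in KO_dN, 59.0 in KO and 500.4 in WT. At the other end, the 7 RNA polymerase I subunits together made up 1.96% in KO_FL, 1.82% in KO_dN, 2.40% in KO and 2.07% in WT. A share of this kind does not depend on a group's scale. The box H/ACA proteins held 17.7% in KO_FL, 20.0% in KO_dN, 17.2% in KO and 11.0% in WT, and the box C/D proteins 14.7% in KO_FL, 13.2% in KO_dN, 12.2% in KO and 19.8% in WT.

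**Figure D2:**
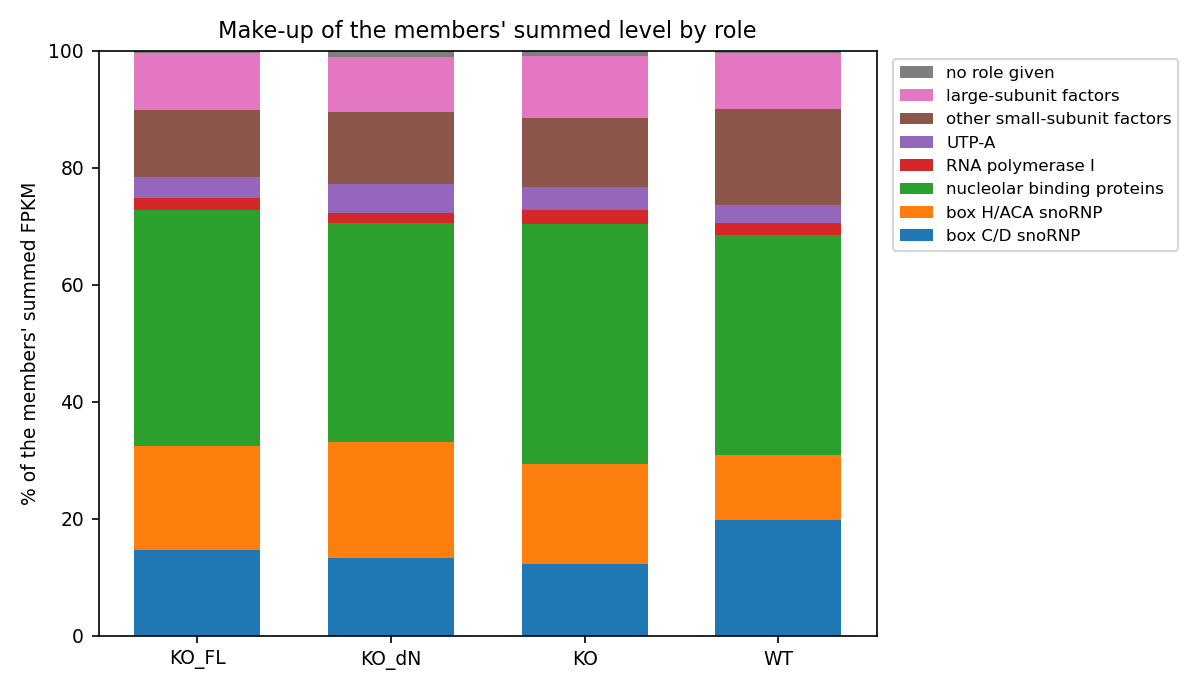
Share of the members' summed FPKM taken by each role, in % of each group's own total, with groups on the x axis. The WT bar has the largest box C/D share, 19.8%, and the smallest box H/ACA share, 11.0%, and RNA polymerase I is a thin band of 1.82% to 2.40% in every bar.

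Setting KO beside WT compares footprints on these genes between mutant and wild type libraries, where genotype and file cannot be told apart. Members stood low in KO beyond the shift of the median gene. The median member had 1.51 FPKM in KO and 17.1 FPKM in WT and a relative log2 ratio of -0.66, and 25 of the 47 (53.2%) were at least 1.5-fold lower relative to all genes, where 27.1% of all genes were. Another 5 (10.6%) were at least 1.5-fold higher, where 27.6% of all genes were. Ranks of the same values, which do not depend on scale, lay on the same side. The median member stood at percentile 51.9 of the 7698 genes in KO and at percentile 71.7 in WT. These ranks used the same filter and are not separate evidence. The log2 ratio of all genes was lower at higher levels: with genes in 10 equal bins by mean level, its median was -1.39 in the lowest bin and -2.84 in the highest. Centred within these level bins, the median member was at -0.43, with 16 members (34.0%) lower, where 22.6% of all genes were, and 4 higher. The filter leans on WT, and with a filter on the mean of the mutant groups alone 36 members passed, of which 23 (63.9%) were lower, where 31.3% of all genes were, and 4 higher.

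**Figure D3:**
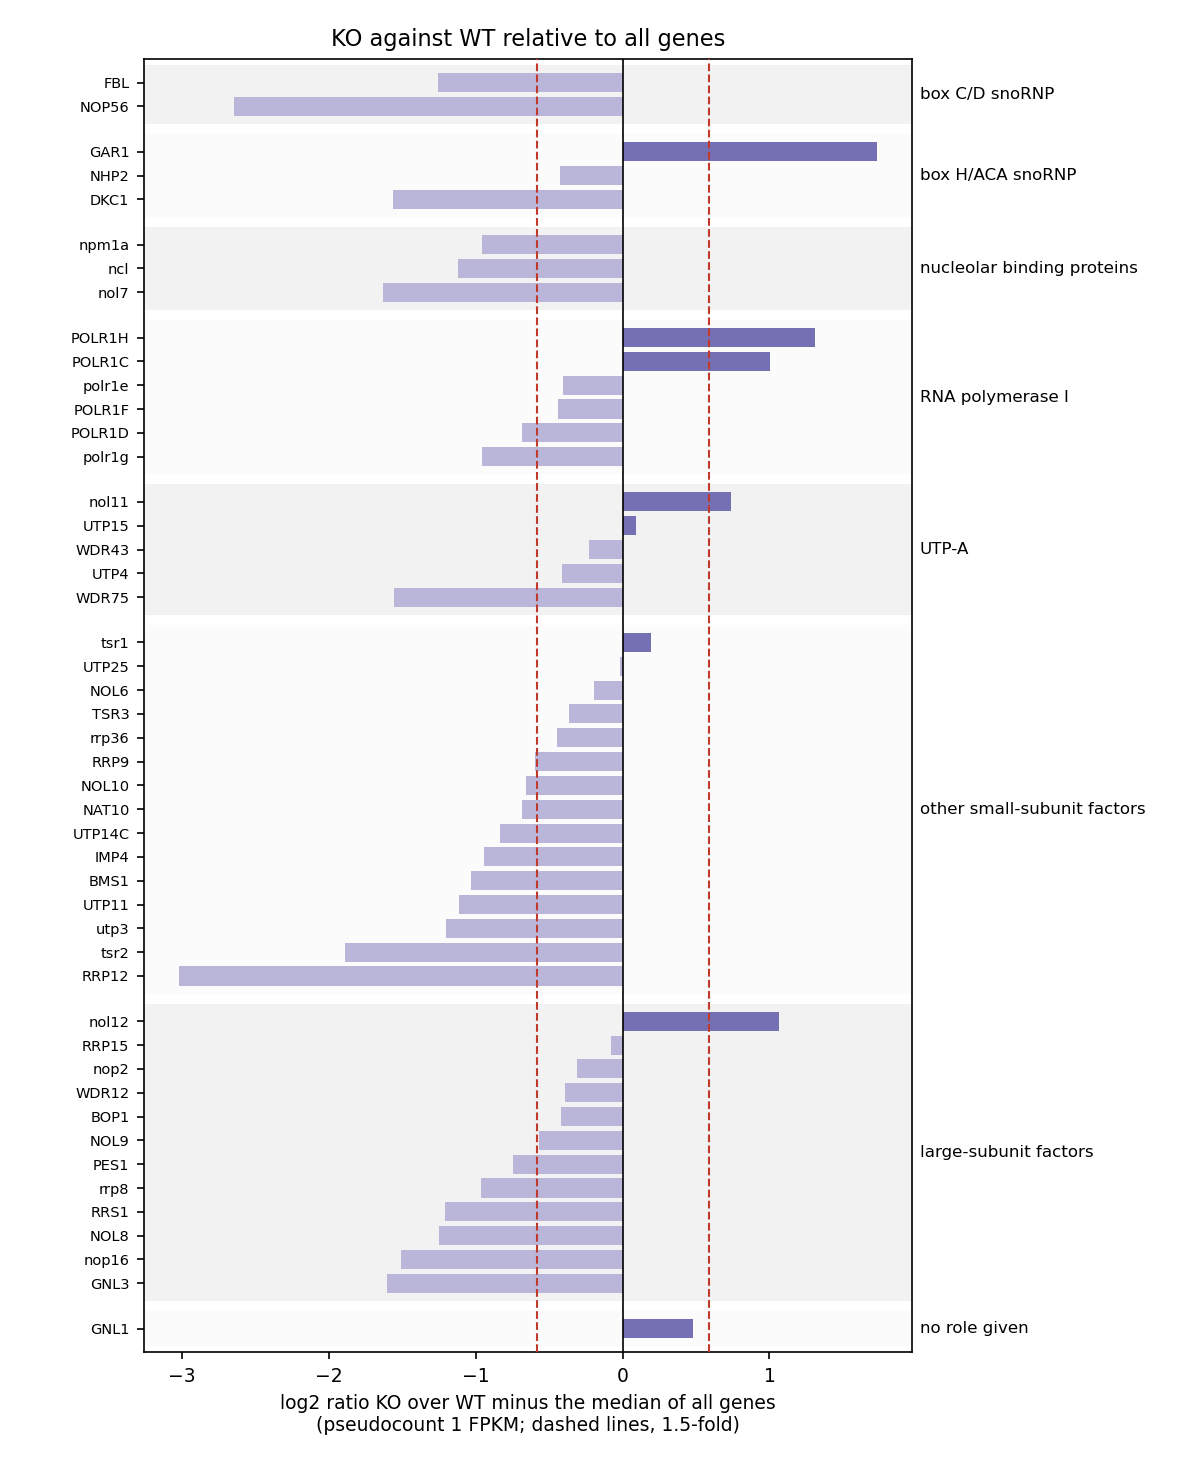
Relative log2 ratio of KO over WT for the 47 members past the filter, with bars grouped by role and dashed lines at 1.5-fold. Of the 47 bars 39 point left, down to -3.02 for RRP12, while GAR1, POLR1H, nol12, POLR1C and nol11 pass the right-hand line.

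The box C/D snoRNP guides 2'-O-methylation of ribosomal RNA, and both measured core proteins were low in KO. FBL (ENSDARG00000053912), fibrillarin, the methyltransferase of this particle, stood at 32.1 FPKM in KO_FL, 11.8 in KO_dN, 21.0 in KO and 202 in WT, with a relative KO/WT log2 ratio of -1.26. NOP56 (ENSDARG00000012820), a scaffold protein of the same particle, stood at 15.4 FPKM in KO_FL, 5.12 in KO_dN, 8.94 in KO and 238 in WT, with a relative ratio of -2.65. The pair was thus near-equal in WT and not in the mutant groups. The FPKM ratio of NOP56 to FBL was 0.480 in KO_FL, 0.433 in KO_dN and 0.425 in KO, against 1.18 in WT. Against genes of its own level bin FBL was at -0.36, inside 1.5-fold, and NOP56 at -1.75.

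The box H/ACA snoRNP guides pseudouridine formation, and its 3 measured proteins differed. DKC1 (ENSDARG00000016484), dyskerin, the pseudouridine synthase, stood at 19.2 FPKM in KO_FL, 6.81 in KO_dN, 12.6 in KO and 153 in WT (relative KO/WT ratio -1.57). NHP2 (ENSDARG00000069422), a core protein, stood at 17.9 FPKM in KO_FL, 7.66 in KO_dN, 13.2 in KO and 72.4 in WT (-0.42, and 0.47 against its own level bin). GAR1 (ENSDARG00000076526), the protein that joins the mature particle, stood at 20.2 FPKM in KO_FL, 11.2 in KO_dN, 16.3 in KO and 19.0 in WT. Its relative ratio of 1.73 was the highest of any member, and it was between 0.81 and 2.48 over the 8 centred alternatives that keep a filter. The 3 genes lay within 2-fold of each other in every mutant group and were spread widely in WT. The FPKM ratio of GAR1 to DKC1 was 1.05 in KO_FL, 1.65 in KO_dN and 1.30 in KO, against 0.124 in WT, so it was 10.5-fold higher in KO than in WT. That of NHP2 to DKC1 was 0.932 in KO_FL, 1.13 in KO_dN and 1.05 in KO, against 0.472 in WT.

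**Figure D4:**
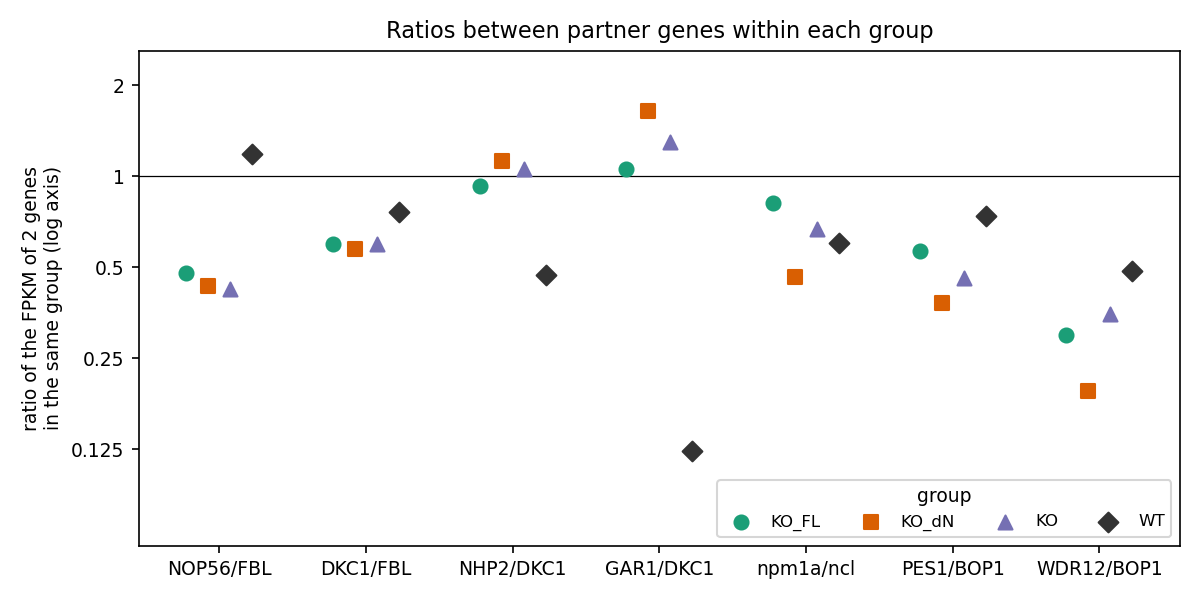
Ratio of the FPKM of a pair of partner genes within the same group, on a log axis, for KO_FL, KO_dN, KO and WT. The ratio does not depend on a group's scale: NOP56/FBL is 0.425 to 0.480 in the mutant groups and 1.18 in WT, and GAR1/DKC1 is 1.05 to 1.65 in the mutant groups and 0.124 in WT.

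Among the abundant nucleolar binding proteins, ncl had a relative KO/WT ratio of -1.12. npm1a (ENSDARG00000014329), nucleophosmin, a histone and ribosomal protein chaperone, stood at 57.2 FPKM in KO_FL, 14.9 in KO_dN, 39.4 in KO and 302 in WT (-0.96). Both belong to the highest level bin, and against it ncl was at -0.22 and npm1a at -0.06, close to other genes of their abundance. The FPKM ratio of npm1a to ncl was 0.815 in KO_FL, 0.464 in KO_dN, 0.668 in KO and 0.603 in WT, so that KO and WT lay between the injected groups. The near copy npm1b, which is not a member, was at 0.812 FPKM in KO_FL, 0.244 in KO_dN, 0.579 in KO and 5.70 in WT, and the sources used here do not say how reads shared by the copies were counted. nol7, a nucleolar protein, stood at 2.87 FPKM in KO_FL, 0.789 in KO_dN, 1.81 in KO and 32.6 in WT (-1.64).

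RNA polymerase I subunits were the least abundant role, with a median over the 6 past the filter of 0.946 FPKM in KO_FL, 0.339 in KO_dN, 1.17 in KO and 6.35 in WT. In KO relative to all genes 2 (33.3%) were higher, 2 (33.3%) lower and 2 within 1.5-fold. Of all genes 27.6% were higher and 27.1% lower, so these shares were near the background. Which subunits were called depended on the setting. Against their own level bins POLR1H was higher at 0.95, and polr1g at -1.11 and polr1e at -0.77 were lower. POLR1C at 0.45, POLR1D at -0.49 and POLR1F at -0.24 were within 1.5-fold of their bins. polr1e, polr1g and POLR1C passed the filter only through WT, so their low KO values beside WT were in part set by the filter. POLR1H (ENSDARG00000036070), a small subunit of the core, stood at 1.48 FPKM in KO_FL, 0.405 in KO_dN, 1.46 in KO and 2.81 in WT (relative ratio 1.31). POLR1C (ENSDARG00000039400), which is shared with RNA polymerase III, stood at 0.830 FPKM in KO_FL, 0.400 in KO_dN, 0.951 in KO and 2.75 in WT (1.00). These are the pair with the lowest WT levels among the subunits past the filter. POLR1D (ENSDARG00000037570), the partner of POLR1C in both polymerases, stood at 1.79 FPKM in KO_FL, 0.231 in KO_dN, 1.39 in KO and 13.8 in WT (-0.69). The heterodimer of polr1e (ENSDARG00000006434) and polr1g (ENSDARG00000090386), which binds the core enzyme, was under 1 FPKM in every mutant group. polr1e stood at 0.195 FPKM in KO_FL, 0.279 in KO_dN, 0.0670 in KO and 4.45 in WT (-0.41). polr1g stood at 0.530 FPKM in KO_FL, 0.232 in KO_dN, 0.238 in KO and 8.25 in WT (-0.96). Values this far under the pseudocount hide most of the fold: without it polr1e in KO was 0.0151 of WT and polr1g 0.0288 of WT, against 0.519 for POLR1H. POLR1F (ENSDARG00000024416), of the stalk, stood at 1.06 FPKM in KO_FL, 0.637 in KO_dN, 1.51 in KO and 12.1 in WT (-0.44). POLR1B (ENSDARG00000077469), of the catalytic core, stood at 0.451 FPKM in KO_FL, 0.147 in KO_dN, 0.251 in KO and 1.84 in WT, below the filter.

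The small-subunit processome assembles on the nascent precursor. UTP-A, its first part to bind, had 5 measured members with a median relative KO/WT ratio of -0.23. WDR75 was lower, at 1.52 FPKM in KO_FL, 0.806 in KO_dN, 1.32 in KO and 25.2 in WT (-1.55), and nol11 was higher, at 2.02 FPKM in KO_FL, 0.812 in KO_dN, 2.20 in KO and 6.36 in WT (0.74). UTP4, UTP15 and WDR43 were within 1.5-fold, between -0.41 and 0.09. The other 15 small-subunit factors had a median of -0.69. Of them 10 (66.7%) were lower and 0 higher, where 27.1% of all genes were lower and 27.6% higher. RRP12, which is known from yeast for the export of pre-ribosomes, had the lowest ratio of any member, with 3.53 FPKM in KO_FL, 0.750 in KO_dN, 2.02 in KO and 93.3 in WT (-3.02). tsr2, a chaperone of a small-subunit ribosomal protein, stood at 2.86 FPKM in KO_FL, 0.972 in KO_dN, 1.68 in KO and 37.4 in WT (-1.89). utp3 stood at 5.75 FPKM in KO_FL, 2.61 in KO_dN, 5.30 in KO and 54.9 in WT (-1.21). IMP4 (ENSDARG00000054540), which helps pair the U3 snoRNA with the precursor, stood at 2.15 FPKM in KO_FL, 0.693 in KO_dN, 1.46 in KO and 17.2 in WT (-0.94). BMS1, a GTPase of the processome, was at -1.03, NAT10, which acetylates the small-subunit RNA, at -0.69, and RRP9, a U3 snoRNA protein, at -0.60, but against their own level bins RRP9 was at 0.15 and NAT10 at -0.15. UTP25, known in zebrafish as Def for its role in digestive organ growth, stood at 1.44 FPKM in KO_FL, 0.867 in KO_dN, 1.46 in KO and 8.59 in WT (-0.02). tsr1, a late small-subunit factor, was at 0.19. The remaining 6 small-subunit members lay between -1.12 for UTP11 and -0.20 for NOL6, with UTP14C and NOL10 also past 1.5-fold. UTP14C, NOL6, rrp36, TSR3 and UTP4 passed the filter only through WT, which favours a low KO/WT ratio.

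Among 12 large-subunit factors past the filter, 6 were lower and 1 higher, with a median of -0.66. GNL3, nucleostemin, a nucleolar GTPase of proliferating cells, stood at 1.77 FPKM in KO_FL, 0.898 in KO_dN, 0.670 in KO and 18.5 in WT (-1.60). nop16 stood at 4.93 FPKM in KO_FL, 1.09 in KO_dN, 3.66 in KO and 50.1 in WT (-1.51). NOL8 was at -1.25, RRS1, which brings in the 5S particle, at -1.21, and rrp8, a base methyltransferase of the large ribosomal RNA, at -0.97. nol12, whose yeast counterpart is an exonuclease, was the 1 that was higher, at 8.07 FPKM in KO_FL, 3.87 in KO_dN, 9.44 in KO and 18.2 in WT (1.06). In the PeBoW complex, which is needed to process the large-subunit RNA, PES1 was among the 6 that were lower, and BOP1 and WDR12 were within 1.5-fold. Against their own level bins PES1 at -0.50, WDR12 at -0.43 and BOP1 at 0.12 were all within 1.5-fold, as was rrp8 at -0.43. BOP1 (ENSDARG00000063627) stood at 3.88 FPKM in KO_FL, 1.78 in KO_dN, 2.86 in KO and 18.8 in WT (-0.42). PES1 (ENSDARG00000018902) stood at 2.19 FPKM in KO_FL, 0.677 in KO_dN, 1.32 in KO and 13.9 in WT (-0.75). WDR12 (ENSDARG00000003287) stood at 1.16 FPKM in KO_FL, 0.347 in KO_dN, 1.00 in KO and 9.11 in WT (-0.39). NOL9, nop2 and RRP15 were within 1.5-fold, between -0.57 and -0.08. RRS1, WDR12 and nop2 passed the filter only through WT, which favours a low KO/WT ratio. GNL1, a GTPase given no role here, was at 0.48, and nol4la and NOL4L, which the symbol rule also took in, have no assigned role and were below the filter.

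KO_FL set beside KO shows how these genes differed after injection of ddx3xbFL. As deposited, 38 of the 47 members past the filter were higher in KO_FL, where 70.8% of all genes kept were. Relative to all genes the median member was at 0.05. None of the 47 passed 1.5-fold in either direction with a pseudocount of 1 FPKM, where 10.3% of all genes were higher and 6.86% lower. At a pseudocount of 0.1 FPKM, 4 (8.51%) were higher, where 16.9% of all genes were, and 2 (4.26%) lower, where 14.7% of all genes were. The relative ratios ran from -0.46 to 0.55. GNL3, with 1.77 FPKM in KO_FL and 0.670 in KO, and NOP56, with 15.4 in KO_FL and 8.94 in KO, were both at 0.55. RRS1 followed at 0.49 (1.55 FPKM in KO_FL and 0.610 in KO), then FBL and RRP12, both at 0.41. The lowest were POLR1F at -0.46, GNL1 at -0.42, nol12 at -0.38, rrp36, a processome protein, at -0.33 and POLR1C at -0.27. By role, the medians were 0.48 for the box C/D pair, 0.29 for the nucleolar binding proteins, 0.23 for the box H/ACA proteins, 0.08 for large-subunit factors, 0.01 for the other small-subunit factors, -0.06 for UTP-A and -0.09 for RNA polymerase I. Roles with abundant genes had the higher medians, but the nucleolar median was that of nol7, and ncl, the most abundant member, was at 0.07. Among all genes the median log2 ratio was 0.08 in the lowest level bin and 0.55 in the highest. Whether level accounts for the differences between roles was not tested. Against its own level bin FBL was at 0.04, NOP56 at 0.17 and ncl at -0.31. This comparison shares the KO libraries with that of KO and WT.

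Cytosolic ribosomal proteins, a list added after values were seen, had other values than these genes in the same comparison. Of 72 past the filter, 52 (72.2%) were at least 1.5-fold higher in KO_FL than in KO relative to all genes, and 0 lower. Of all genes 10.3% were higher and 6.86% lower, and 0 of 47 biogenesis members were higher. The count for the members rests on the setting, with 0 to 5 higher over the alternatives. Ribosomal proteins were counted at the main setting only. Their median was 4.20 FPKM in KO_FL, 1.35 in KO_dN, 1.62 in KO and 25.5 in WT, against 1.90 in KO_FL, 0.809 in KO_dN, 1.51 in KO and 17.1 in WT for the biogenesis members. In KO against WT both lists stood low, with medians of -1.55 for the ribosomal proteins and -0.66 for the members. The difference between the lists was not tested, since there are no replicates.

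**Figure D5:**
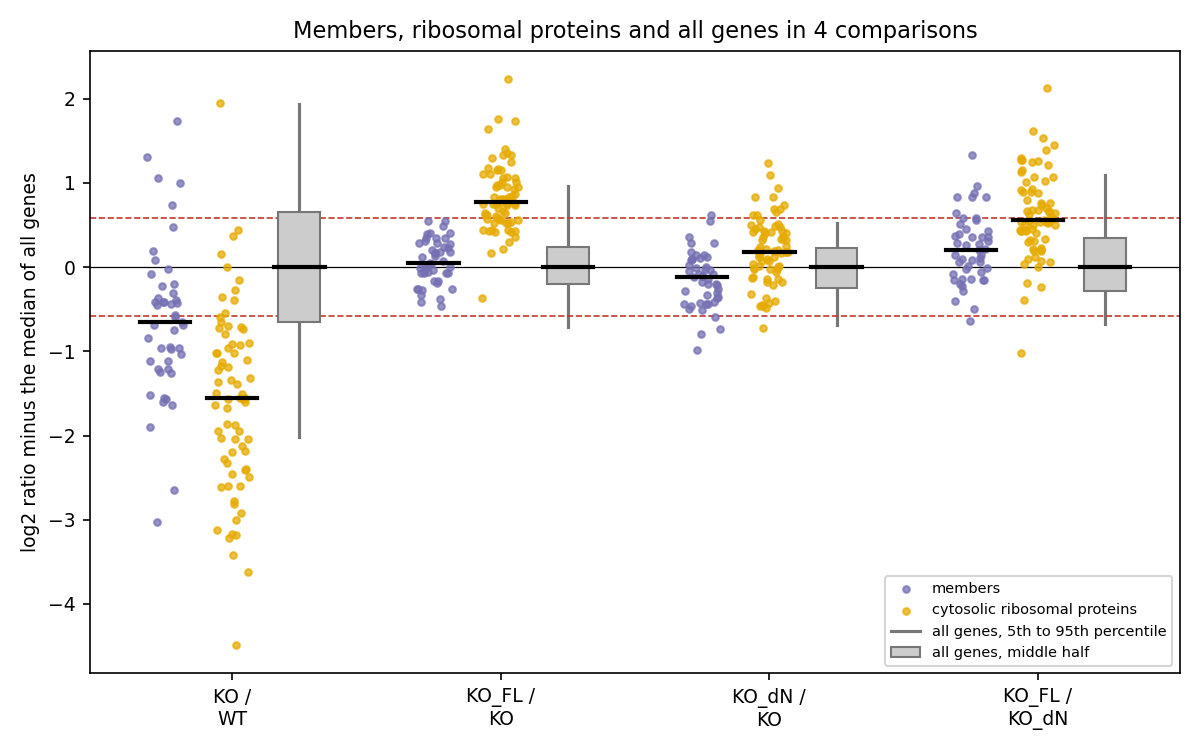
Relative log2 ratios of the 47 members, of 72 cytosolic ribosomal proteins and of all 7698 genes in the 4 comparisons, with points for genes, black bars for medians, boxes for the interquartile range and lines from the 5th to the 95th percentile of all genes, and dashed lines at 1.5-fold. In KO_FL against KO every member lies between the dashed lines and 52 ribosomal proteins lie above the upper one.

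KO_dN set beside KO does the same for the deltaN construct. As deposited, 2 of the 47 members past the filter, GNL3 and polr1e, were higher in KO_dN, where 11.5% of all genes kept were. Relative to all genes the median member was at -0.12, with 1 higher (2.13%, where 4.01% of all genes were) and 4 lower (8.51%, where 7.5% of all genes were), so neither count stood clear of the background. The 4 were npm1a at -0.98 (14.9 FPKM in KO_dN and 39.4 in KO), nop16 at -0.80 (1.09 in KO_dN and 3.66 in KO), nol12 at -0.74 (3.87 in KO_dN and 9.44 in KO) and POLR1D at -0.59 (0.231 in KO_dN and 1.39 in KO); RRP9 came next at -0.51. The 1 that was higher was polr1e at 0.62, where both values were under 0.3 FPKM. GNL3 at 0.55, polr1g at 0.36, UTP14C, a processome protein, at 0.29 and UTP11, another, at 0.28 followed. Against their own level bins 2 members (4.26%) were lower, where 4.33% of all genes were: npm1a at -0.64 and POLR1H at -0.61. nop16 was at -0.52. On that scale 1 member (2.13%) was higher, GNL3 at 0.64, where 5.55% of all genes were, and polr1e was within 1.5-fold at 0.46.

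KO_FL set beside KO_dN compares the injected groups directly. It shares their libraries with the comparisons to KO above, so a member named again here is not separate evidence. Relative to all genes, the median member was at 0.20 and 8 of 47 (17.0%) were higher in KO_FL, where 14.5% of all genes were, and 1 (2.13%) lower, where 6.55% of all genes were. npm1a had the highest ratio, 1.33, with 57.2 FPKM in KO_FL and 14.9 in KO_dN, and its FPKM was 0.815 of ncl in KO_FL against 0.464 in KO_dN. nop16 followed at 0.97 (4.93 FPKM in KO_FL and 1.09 in KO_dN), then NOP56 at 0.88, RRP12 at 0.84 and DKC1 at 0.83. FBL was at 0.83, POLR1D at 0.64 (0.231 FPKM in KO_dN, under the pseudocount) and NHP2 at 0.59. The lowest were polr1e at -0.63 (0.195 FPKM in KO_FL and 0.279 in KO_dN), GNL1 at -0.50, NOL6, a processome protein, at -0.40, rrp36 at -0.28 and polr1g at -0.22. Here the median log2 ratio of all genes was 0.24 in the lowest level bin and 1.27 in the highest. Against their own level bins the median member was at 0.01 and 2 (4.26%) were higher, npm1a and POLR1D, both at 0.59, where 7.24% of all genes were, while NOP56 was at 0.15, FBL at 0.09 and DKC1 at 0.10.

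Other genes of the pathway, from 6 fixed lists of symbols, were read the same way, beside 27.1% of all genes lower and 27.6% higher in KO relative to WT. Of 23 other small-subunit factors past the filter, 10 were lower and 0 higher in KO relative to WT, with a median of -0.10. Among them PNO1, a late small-subunit factor, stood at 2.16 FPKM in KO_FL, 1.05 in KO_dN, 1.06 in KO and 30.8 in WT (-2.01), MPHOSPH10, the partner of IMP4, was at -1.47, PWP2, of the UTP-B complex, at -0.80, and LTV1, another late factor, highest at 0.51. Of 33 other large-subunit factors 15 were lower and 3 higher, with a median of -0.28. EBNA1BP2 stood at 17.2 FPKM in KO_FL, 5.44 in KO_dN, 10.4 in KO and 209 in WT (-2.26), rsl1d1 was at -2.12 and the helicase DDX21 at -1.15. NIP7, a large-subunit factor, went the other way, with 3.62 FPKM in KO_FL, 7.98 in KO_dN, 7.43 in KO and 5.51 in WT, a relative KO/WT ratio of 2.31 and a relative KO_FL/KO_dN ratio of -1.49. In KO_FL against KO, 0 of the 23 small-subunit factors were higher or lower. Of the 33 large-subunit factors 4 (12.1%) were higher and 2 (6.06%) lower, where 10.3% of all genes were higher and 6.86% lower, so these shares were near the background.

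In KO relative to WT 27.1% of all genes were lower and 27.6% higher, and each count in this paragraph stands beside these shares. Of factors of RNA polymerase I transcription and of the nucleolus, 4 of 5 (80.0%) were lower and 0 higher. DDX21 stands in this list and in that of large-subunit factors, and is counted in both. The lowest was nolc1, a snoRNP chaperone, at 12.6 FPKM in KO_FL, 5.72 in KO_dN, 9.68 in KO and 166 in WT (-2.02). Next came pprc1 at -1.65, which the list took in and whose place in RNA polymerase I transcription was not checked. tcof1, the gene for treacle, a cofactor of RNA polymerase I, was at -0.47. Of the RNA exosome and ribosomal RNA exonucleases, 6 of 11 were lower and 0 higher, with C1D at -2.20, DIS3 at -1.50, MPHOSPH6 at -1.18 and EXOSC8 at 0.51. Among snoRNP assembly factors 2 of 6 (33.3%) were lower, near the background, and 1 (16.7%) higher. nopchap1 was at -0.76, znhit6 at -0.59, RUVBL1 at -0.44, RUVBL2 at 0.53 and pih1d1 at 0.71. RNA polymerase III, which makes 5S ribosomal RNA and tRNAs, had 4 of 9 subunits past the filter and 1 lower, polr3gla, which stood at 3.72 FPKM in KO_FL, 0.177 in KO_dN, 0.414 in KO and 22.6 in WT (-2.12); CRCP was at 0.48, POLR3C at -0.10 and POLR3E at -0.11. RNA polymerase II subunits, a list added after the values were seen, had 6 of 9 (66.7%) higher and 1 (11.1%) lower, with a median of 0.88. The 6 RNA polymerase I subunits had a median of -0.42. Both sets were taken by symbol, and polr2 subunits that RNA polymerase I shares were not set apart. These medians therefore do not compare separate enzymes.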

How the data were processed

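Ribosome footprints were profiled in 8 samples of whole zebrafish embryos at 4 hpf, 2 per group. Per the labels' protocols, lysates were digested with RNase I, ribosomal RNA was depleted, and fragments of footprint length were cut from a gel. The authors deposited FPKM, 1 value per gene and group, made from both replicates per the series' design text. Tools named in the submitters' processing notes are Cufflinks 2.2.1, TopHat2 2.1.1, Bowtie, Trimmomatic 0.36 and cutadapt 1.13, with the build Zv9; the sources used here do not give their settings. The labels name the molecule polyA RNA, which differs from the protocol. The WT file listed 101 identifiers on several lines and lacked 3; these were left out of every group. A table of gene names gave symbols to 21863 of the 33633 identifiers.

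Relative log2 ratios used a pseudocount of 1 FPKM, a minimum mean of 1 FPKM and the median of 7698 genes. With 1 value per group, no test was made. The calculation was tested on simulated data with levels far above the pseudocount and changes larger than 1.5-fold. That check does not cover genes as low as most members, or changes near the 1.5-fold cut. Depth was ranked from 4 common log2 ratios among low genes of each pair of groups, whose outer and inner pairs were required to have the same sum; it is not the number of reads. Named were all members of the snoRNPs, RNA polymerase I and PeBoW, IMP4, ncl and npm1a, the 5 with the highest mean, the 5 highest and the 5 lowest ratios of each comparison, and for other lists the 3 most abundant genes and the extremes of KO/WT; further members were named after their values were seen. The members and lists were chosen with earlier results of these data known. Alternatives changed the pseudocount, filter, scaling and centring. Python 3.11.15, numpy 2.4.6 and pandas 2.3.3 were used.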

Additional observations from a re-analysis of the deposited data

How the results depend on the processing

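With 1 deposited value per group, no replicate could be left out. No paired analysis was possible because the files hold no value per replicate. Of 120 values recomputed, 72 stayed close to those reported and 48 moved, and the cause was not tested except where the setting itself shows it. The median for KO against WT was negative under every one of the 10 alternatives. It ran from -0.77 to -0.43 over the centred ones that keep a filter. The uncentred value of -2.60 carries the shift of all genes, whose median was -1.94, so its sign adds no support. The unfiltered value of -1.98 was centred on 24648 genes, many of them under 1 FPKM. In the order KO against WT, KO_FL against KO, KO_dN against KO and KO_FL against KO_dN, ratios that were not centred had medians of -2.60, 0.22, -0.48 and 0.74; they gave 0, 5, 0 and 31 members higher, and 46 lower in KO against WT, 18 lower in KO_dN against KO and 0 lower in KO_FL against KO_dN. Of all genes, 90.3% were then lower in KO against WT, 27.3% lower in KO_dN against KO, 15.4% higher in KO_FL against KO and 46.0% higher in KO_FL against KO_dN. Without a filter the medians were -1.98, 0.18, -0.39 and 0.59, and 0, 3, 0 and 26 members were higher. There were 45, 16 and 0 lower in KO against WT, KO_dN against KO and KO_FL against KO_dN. Of all genes, 31.6% were then lower in KO against WT and 8.18% lower in KO_dN against KO. In KO_FL against KO 5.30% of all genes were higher, and in KO_FL against KO_dN 14.1% were. At a mean of at least 5 FPKM, which leaves 24 members, KO against WT had 2 higher and 10 lower, and KO_dN against KO 1 lower. KO_FL against KO_dN had 2 higher and 0 lower, with a median of -0.0113. Of all genes, 31.9% were then higher and 29.7% lower in KO against WT, and 7.10% lower in KO_dN against KO. In KO_FL against KO_dN 15.8% of all genes were higher and 13.1% lower. Centred within 10 bins of mean level, KO against WT had 16 lower, where 22.6% of all genes were. KO_dN against KO had 2 lower with a median of -0.0178, where 4.33% of all genes were lower. KO_FL against KO_dN had 2 higher and 0 lower with a median of 0.0100, where 7.24% of all genes were higher and 8.17% lower. A pseudocount of 5 FPKM gave 3 higher in KO against WT, 0 higher and 2 lower in KO_dN against KO, and 0 lower in KO_FL against KO_dN. Of all genes, 13.4% were then higher in KO against WT, and 1.40% higher and 4.68% lower in KO_dN against KO. In KO_FL against KO_dN 1.36% of all genes were lower. A pseudocount of 0.1 FPKM gave 4 higher and 2 lower in KO_FL against KO, where 16.9% of all genes were higher and 14.7% lower. It gave 3 higher and 8 lower in KO_dN against KO, where 15.9% of all genes were higher and 11.5% lower. In KO_FL against KO_dN it gave 3 lower, where 19.2% of all genes were. Scaling by median of ratios gave 1 higher in KO_FL against KO, 2 in KO_dN against KO and 5 in KO_FL against KO_dN. Of all genes, 10.2%, 6.73% and 10.6% were then higher in the same order. Quantile normalization gave 2 higher in KO_FL against KO, where 11.4% of all genes were, and 2 in KO_dN against KO, where 8.65% were. Summing lines and a filter without WT moved no count by over 1.5 times. The number of reads behind a value is unknown, so no precision can be given for a single gene.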
